A study of Mus musculus with 6 samples.

Results

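The T-cell factor/lymphoid enhancer factor (TCF/LEF) genes *Tcf7*, *Tcf7l1*, *Tcf7l2* and *Lef1*, the β-catenin coactivator genes *Bcl9*, *Bcl9l*, *Pygo1* and *Pygo2*, and the Groucho-type corepressor genes *Tle1* and *Tle3* were examined in RNAseq tables of mouse liver tumors. They were chosen by name, as the DNA-bound end of the Wnt pathway, and make up 10 of the 35683 genes to which the tables could be assigned. All 10 had a mean of at least 1 TPM (length-corrected transcript units, summing to the same total in every tumor) and passed the filter on low counts. The 6 tumors came from 2 male CMRtdT mice, 3 tumors from each, on a C57BL/6 background, and are named M1T1 to M1T3 and M2T1 to M2T3 by mouse and tumor. CMRtdT mice carry 1 *Ctnnb1* allele whose exon 3 is removed by Cre, the *MUP-uPA* transgene, which injures hepatocytes, and the *R26* tdTomato reporter. High-fat diet began at 6 weeks of age, and the mice were injected at 8 weeks with AAV8-TBG-Cre, in which a hepatocyte promoter drives Cre in a small share of hepatocytes. Macroscopic tumors were excised 6.5 months later. All tumors therefore belong to 1 condition, with no control tissue analysed here, and the only labelled grouping is the animal.

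When β-catenin is stabilised it enters the nucleus and binds TCF/LEF factors, which sit on the DNA of Wnt target genes. BCL9 proteins bind β-catenin and recruit PYGO proteins, whose PHD finger reads methylated histone H3, and this chain promotes transcription. Without β-catenin the same factors recruit TLE corepressors, so one set of DNA-binding proteins can activate or repress. In adult hepatocytes TCF7L2 is the family member best known for Wnt-dependent zonation, while TCF7 and LEF1 are best known from T lymphocytes and are themselves Wnt targets in several tissues.

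Both *Tcf7* and *Lef1* are transcribed into forms that begin their coding sequence at the first or at a downstream start. TCF/LEF proteins bind β-catenin with their amino-terminal end, so the start is shown here, as the first 60 coding bases of the main forms, from GENCODE vM39 transcripts (GRCm39, sense strand) with the start codon in capitals.
Tcf7-202 (long form): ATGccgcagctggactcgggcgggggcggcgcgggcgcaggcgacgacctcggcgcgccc
Tcf7-201 (downstream start): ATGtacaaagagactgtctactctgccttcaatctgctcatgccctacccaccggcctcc
Lef1-201 (long form): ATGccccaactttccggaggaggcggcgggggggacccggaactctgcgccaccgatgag
Lef1-203 (downstream start): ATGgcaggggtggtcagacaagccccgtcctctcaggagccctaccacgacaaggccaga
The coding sequence of Tcf7-202 has 418 codons and that of Tcf7-201 has 302, and the latter starts 348 bases into the former, in the same frame. Lef1-201 has 396 codons and Lef1-203 has 330. The 60 bases shown for Lef1-203 do not occur in the coding sequence of Lef1-201, while the final 87 bases of the 2 are the same. In GRCm38, *Tcf7* lies on chromosome 11 from 52246527 to 52283383 and *Lef1* on chromosome 3 from 131110297 to 131224357.

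Libraries held 19130532 to 27681766 estimated counts. M1T1 stood apart across the transcriptome. Its median ratio to the median of the other 5 tumors was 1.98-fold over 12199 genes on the TPM scale, and 1.03-fold on depth-scaled counts (CPM) with TMM factors, which correct for the make-up of a library. It was the highest tumor for 62.6% of genes by TPM and for 42.3% by CPM with TMM, so gaps that rest on it are given on both scales. Its summed hepatocyte markers, 9 of 9 of them lowest in this tumor, came to 1504 TPM against 26758 to 43018 TPM in the other 5. *Hnf4a*, a transcription factor that defines hepatocytes, had 5.08 TPM there and at least 99.6 TPM elsewhere. Summed T and NK cell markers were 5.81 TPM in it, within the 4.73 to 14.8 TPM of the others, and 5 of these 13, among them *Cd3d* and *Cd3e*, were at 0 counts. Summed macrophage markers, 7 of 7 lowest in M1T1, were 74.0 TPM against 140.3 to 485.8 TPM, endothelial markers 17.5 against 39.2 to 97.1 TPM, B cell markers 1.14 against 2.28 to 5.55 TPM, stellate and fibroblast markers 57.8 against 22.7 to 85.8 TPM, and cholangiocyte markers 44.2 against 4.61 to 36.4 TPM. M1T2 and M1T3 were the most alike pair. Their median chi-square per gene was 1.395, where sampling alone gives 0.455 and the next closest pair gave 6.30. They exceed counting noise and were counted as 2 tumors, as the labels give them, and whether they are separate growths was not tested.

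*Tcf7*, which encodes TCF1, was the most abundant TCF/LEF mRNA in 5 of the 6 tumors. It had 91.1, 10.9 and 11.7 TPM in the tumors of mouse 1, in the order of their numbers, and 10.2, 6.71 and 4.53 TPM in those of mouse 2. Its mean was 22.5 ± 33.7 TPM (SD, n = 6), and 8.81 ± 3.06 TPM (SD, n = 5) without M1T1. That tumor was 7.77-fold above the highest of the others by TPM and 4.26-fold by CPM with TMM, and the other 5 lay within 2.59-fold of each other. *Lef1* had 102.9, 3.41 and 3.75 TPM in mouse 1 and 2.32, 2.33 and 0.149 TPM in mouse 2, in the same order. It was thus the most abundant factor in M1T1 and rested on 11 estimated reads in M2T3, against 6365 in the former. Its mean was 19.1 ± 41.0 TPM (SD, n = 6), or 2.39 ± 1.41 TPM (SD, n = 5) without M1T1, which exceeded the next tumor 27.4-fold by TPM and 16.1-fold by CPM with TMM. Beside these 2 genes, which T lymphocytes also use, the T cell markers *Cd3d*, *Cd3e*, *Cd8a* and *Cd8b1* were at 0 counts in M1T1. *Lck*, which encodes a T cell kinase, was higher there by TPM, with 2.38 TPM (27 reads) against 0.145 to 0.899 TPM. By CPM with TMM *Lck* had 0.787 CPM in M1T1, within the 0.329 to 1.5 CPM of the others. *Thy1* had 2.78 TPM against 0.565 to 3.88 TPM, and the part of such cells was not tested.

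*Tcf7l2*, which encodes TCF4, the factor best known from hepatocytes and the intestine, varied least of the 4 over the 6 tumors. It had 3.93, 2.67 and 3.17 TPM in mouse 1 and 4.10, 2.51 and 1.86 TPM in mouse 2, a mean of 3.04 ± 0.868 TPM (SD, n = 6). M1T1 fell inside the range of the others by TPM, and with 6.59 CPM it was the lowest of the 6 with TMM, where the others had 7.09 to 14.7 CPM. *Tcf7l1*, which encodes TCF3, a factor known mainly as a repressor, had 4.71, 0.988 and 1.06 TPM in mouse 1 and 0.911, 0.649 and 0.750 TPM in mouse 2, with 41 to 258 estimated reads. It was 4.45-fold higher in M1T1 than in the next tumor by TPM and 2.13-fold by CPM with TMM, and the other 5 tumors averaged 0.872 ± 0.170 TPM (SD, n = 5).

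**Figure D1:**
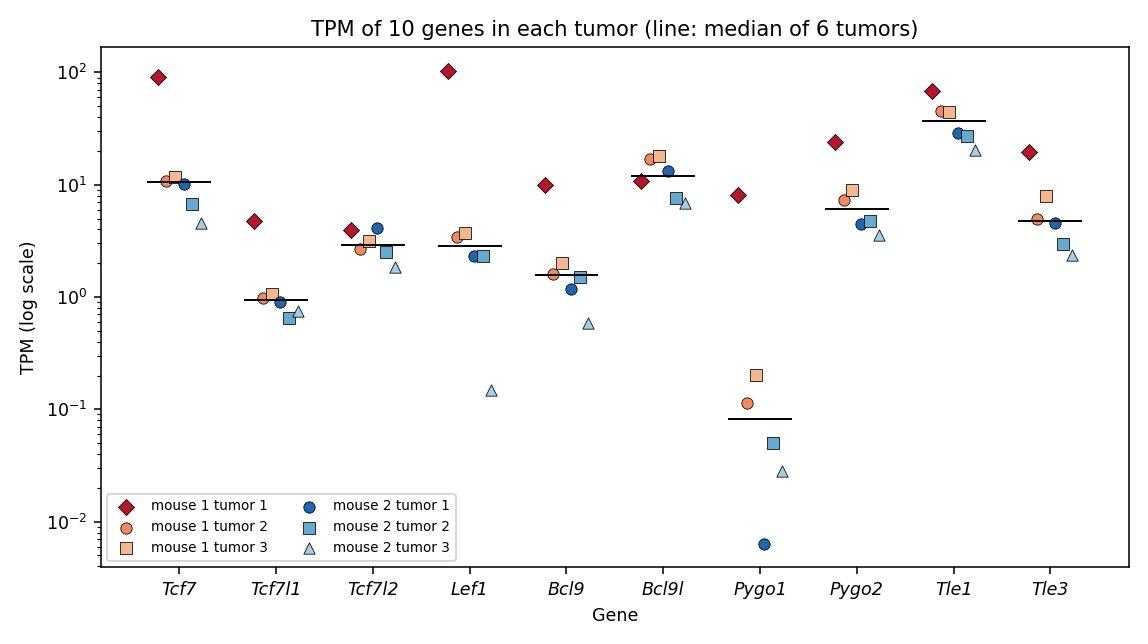
TPM on a log axis of the 10 genes in each of the 6 tumors, 1 point per tumor and a line at the median of 6. M1T1 (diamond) was the highest tumor for 8 of the 10 genes, and *Tcf7l2* and *Bcl9l* were the exceptions.

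The balance within the family can be read inside 1 tumor, free of scaling between tumors. The 4 genes summed to 202.6 TPM in M1T1 and to 7.28 to 19.7 TPM in the others. *Tcf7* held 55.1% to 62.2% of the sum in these 5 tumors and 45.0% in M1T1. The share of *Lef1* was 50.8% in the latter, 13.2% to 19.1% in 4 tumors, and 2.04% in M2T3. *Tcf7l2* took 1.94%, 14.9% and 16.1% in M1T1, M1T2 and M1T3 and 23.4%, 20.6% and 25.5% in mouse 2. All 3 values of mouse 2 were above all 3 of mouse 1, a difference of 12.2 percentage points (exact two-sided permutation test, p = 0.1, the smallest that 3 against 3 can give). Here and for the shares below, the permutation shuffles tumors of 2 animals, so it does not measure the variation among animals. *Tcf7l1* made up 2.33% in M1T1 and 5.21% to 10.3% in the others.

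**Figure D2:**
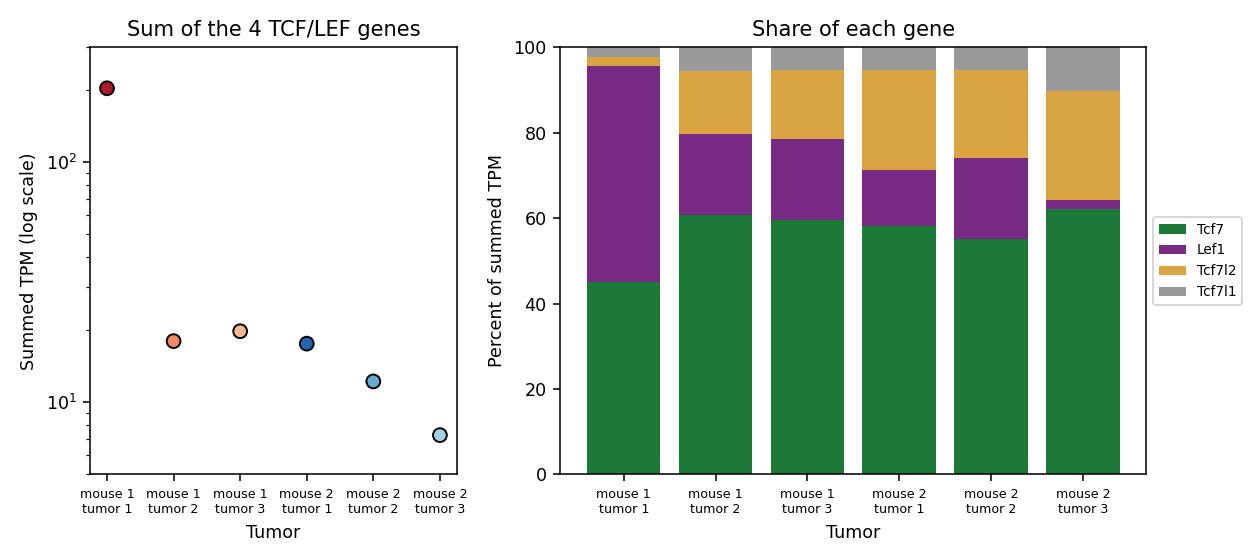
Left, summed TPM of the 4 TCF/LEF genes per tumor on a log axis. Right, the percent of that sum held by each gene, where *Tcf7* was the larger part in 5 tumors and *Lef1* held 50.8% in M1T1.

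The forms of *Tcf7* were both present in each tumor. Tcf7-201, with the downstream start, had 70.9, 7.62 and 6.40 TPM in mouse 1 and 6.76, 5.12 and 3.07 TPM in mouse 2, and Tcf7-202, with the long coding sequence, had 20.3, 3.26 and 5.34 TPM in mouse 1 and 3.42, 1.59 and 1.46 TPM in mouse 2. The downstream-start form thus held 54.5% to 77.8% of the 2, with a mean of 68.8% ± 8.36 (SD, n = 6), and 76.0% by estimated reads. M1T1 had the highest share, at 77.8%, and M2T2 was next at 76.3%, and both forms were higher in M1T1 than in any other tumor. The split is a model estimate. Only 18 exonic bases belong to the downstream-start form alone in the annotation, and the tables hold Tcf7-202 as a model of 1742 bases where GENCODE vM39 has 3476.

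For *Lef1*, the 3 forms that begin at the first start had 78.2, 3.41 and 3.65 TPM together in mouse 1 and 1.89, 1.15 and 0.149 TPM in mouse 2. Lef1-203, with the downstream start, had 23.4 TPM in M1T1, 0.431 TPM in M2T1, 1.18 TPM in M2T2, and no reads in the other 3 tumors. Its share was 23.1% of the 2 kinds in M1T1, from 988 estimated reads. The 50.6% in M2T2 came from 51 reads against 84. This split is a model estimate too, as Lef1-203 has only 24 exonic bases that Lef1-201 lacks, and shares 2274 with it. The long form Lef1-204, whose coding sequence matches that of Lef1-201 over the first 633 bases, had 18.5 TPM in M1T1 and 0.149 to 1.15 TPM in the others.

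*Tcf7l2* was spread over many forms, with 7 of its 21 transcripts holding at least 10% of the gene in some tumor. Tcf7l2-209, with a coding sequence of 1377 bases, was the largest in each tumor at 0.716 to 2.41 TPM. *Tcf7l1* came mostly from Tcf7l1-201, with 0.576 to 4.0 TPM, while Tcf7l1-202 was at or under 0.714 TPM. Coding transcripts made up the whole of *Tcf7* and *Tcf7l1* and 79.6% to 95.5% of *Tcf7l2*.

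**Figure D3:**
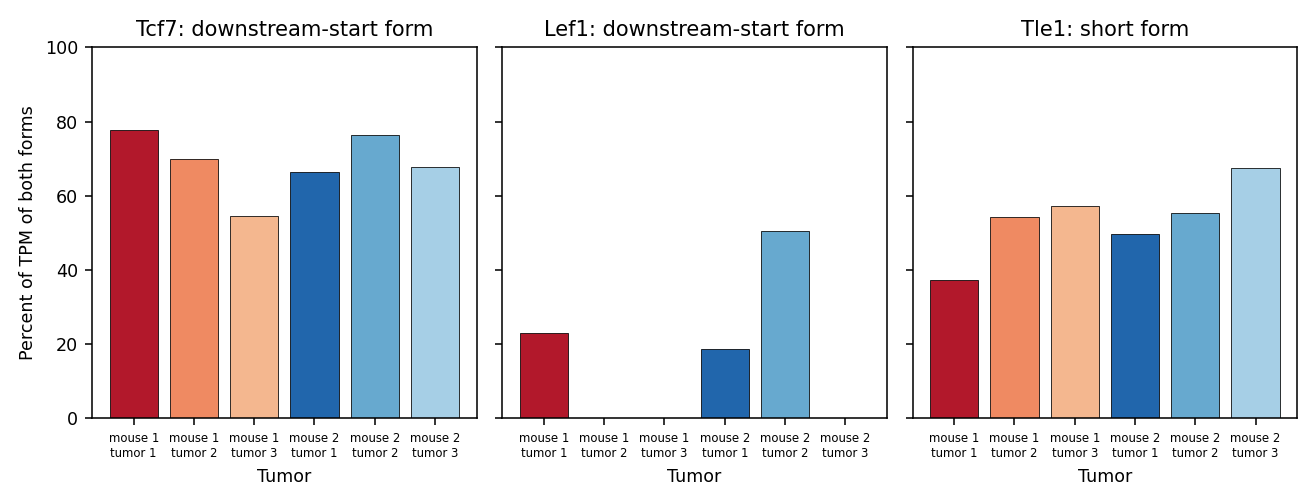
Model estimate of the percent of TPM held by the downstream-start form of *Tcf7* and *Lef1* and by the short form of *Tle1*. Values are per tumor, out of that form and the long forms. The share of *Tcf7* stayed at 54.5% to 77.8%, that of *Lef1* ran from 0% to 50.6%, and that of *Tle1* was lowest, 37.3%, in M1T1.

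Of the 2 BCL9 paralogs, which link β-catenin to PYGO, *Bcl9l* was the higher one in every tumor. It had 10.9, 16.9 and 18.0 TPM in mouse 1 and 13.2, 7.68 and 6.87 TPM in mouse 2, with a mean of 12.3 ± 4.64 TPM (SD, n = 6). Unlike 8 of the 10 genes it was not highest in M1T1, which had 0.824 of the median of the other tumors by TPM and 0.333 by CPM with TMM, where it was the lowest of the 6. *Bcl9* had 9.90, 1.62 and 2.02 TPM in mouse 1 and 1.17, 1.5 and 0.588 TPM in mouse 2. M1T1 was 4.90-fold above the next tumor by TPM and 2.16-fold by CPM with TMM. In that tumor 54.2% of the *Bcl9* TPM came from coding transcripts, and Bcl9-201, with the full coding sequence of 4275 bases, had 5.36 TPM there and 0.541 to 1.47 TPM elsewhere. Bcl9-203 and Bcl9-208, fragments with no annotated coding sequence, added 2.42 and 1.85 TPM in it, from 19 and 7 of the 617 estimated reads of the gene. The share of *Bcl9l* in the pair was 83.7% to 92.1% in 5 tumors and 52.3% in M1T1, and its means of 77.8% in mouse 1 and 89.2% in mouse 2 did not differ beyond the spread between tumors (exact two-sided permutation test, p = 0.5).

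The PYGO pair was the most uneven of the 3 pairs in the 5 tumors other than M1T1. *Pygo2* had 23.8, 7.32 and 8.92 TPM in mouse 1 and 4.50, 4.79 and 3.53 TPM in mouse 2, a mean of 8.81 ± 7.61 TPM (SD, n = 6) and 5.81 ± 2.23 TPM (SD, n = 5) without M1T1. *Pygo1* had 8.11, 0.113 and 0.204 TPM in mouse 1 and 0.00637, 0.0503 and 0.0281 TPM in mouse 2. Its estimated reads were 1112 in M1T1 and 15, 34, 1, 7 and 4 in the other tumors in that order, so only the first tumor held more than traces. That tumor was 39.8-fold above the next by TPM and 26.7-fold by CPM with TMM, the widest gap among the 10 genes on both scales. *Pygo2* held 97.8% to 99.9% of the pair in 5 tumors and 74.6% in M1T1. Its share was 74.6%, 98.5% and 97.8% in mouse 1 and 99.9%, 99.0% and 99.2% in mouse 2, without overlap (exact two-sided permutation test, p = 0.1). Without M1T1 the exact permutation test gave p = 0.2, the smallest that 2 against 3 can give, for this share and for that of *Tcf7l2*, and the mice still did not overlap.

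*Pygo2* was split between Pygo2-201, with a coding sequence of 1215 bases and 2.16 to 10.1 TPM, and Pygo2-202, with 1104 bases. The latter had 12.3, 2.86 and 1.66 TPM in mouse 1, 2.34 TPM in M2T1 and no reads in M2T2 or M2T3. *Bcl9l* was led by Bcl9l-203 in each tumor, at 3.54 to 10.2 TPM.

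The corepressor *Tle1* was the most abundant of the 10 genes in 5 of 6 tumors. It had 68.6, 45.7 and 44.6 TPM in mouse 1 and 28.8, 27.1 and 20.3 TPM in mouse 2, with a mean of 39.2 ± 17.6 TPM (SD, n = 6). By TPM the tumors of mouse 1 were all above those of mouse 2. The same held by TPM for *Tcf7*, *Tcf7l1*, *Lef1*, *Bcl9*, *Pygo1*, *Pygo2* and *Tle3*. The share of all genes separated in this way was not counted. With TMM only *Lef1*, *Pygo1* and *Pygo2* of these genes kept the mice apart. *Tcf7*, *Tcf7l1*, *Bcl9* and *Tle3* overlapped, where *Tcf7* had 18.2 CPM in M1T2 and 24.0 CPM in M2T1. By CPM with TMM *Tle1* had 92.2, 81.8 and 84.1 CPM in mouse 1 against 77.8, 70.9 and 60.04 CPM in mouse 2, with M1T1 only 1.097-fold above the next. *Tle3* had 19.7, 4.97 and 8.011 TPM in mouse 1 and 4.59, 2.94 and 2.36 TPM in mouse 2, with M1T1 2.46-fold above the next tumor by TPM and 1.58-fold by CPM with TMM. The share of *Tle3* in the pair was 9.81% to 15.2% in 5 tumors and 22.3% in M1T1. Its means of 15.8% in mouse 1 and 11.3% in mouse 2 differed by less than the spread between tumors (exact two-sided permutation test, p = 0.3).

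A large part of the *Tle1* estimate fell on a short transcript. TLE proteins bind TCF/LEF factors with their amino-terminal Q domain and carry WD repeats at the other end. Tle1-204 has a coding sequence of 199 codons, of which the first 577 bases are those of the 769-codon Tle1-202, and had 22.7, 18.8 and 19.2 TPM in mouse 1 and 10.5, 12.5 and 10.3 TPM in mouse 2. The full-length coding transcripts Tle1-201, Tle1-202 and Tle1-203 had 38.2, 15.9 and 14.4 TPM together in mouse 1 and 10.6, 10.1 and 4.98 TPM in mouse 2. Of the sum of both kinds, the short form thus held 37.3% in M1T1 and 49.8% to 67.4% in the other tumors. By estimated reads it held 30.5% in M1T1 and 41.7% to 61.7% in the others. The split is a model estimate. Tle1-201, Tle1-202 and Tle1-203 were quantified as models of 2569, 3644 and 3660 bases, where GENCODE vM39 has 9511, 9481 and 9502. Tle1-204 was nearly whole, with 2067 of 2248 bases. Tle1-209, an incomplete coding model of 501 bases, added 0.40 TPM in M1T1 and 3.98 to 10.5 TPM in the others. *Tle3* was spread over 7 such transcripts, and none of them passed 4.40 TPM.

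Ordered by the median over tumors, *Tle1* came first with 36.7 TPM, above *Bcl9l* with 12.0 TPM in 6 of 6 tumors and without overlap of the ranges. The next were *Tcf7* with 10.5 TPM, *Pygo2* with 6.06 TPM and *Tle3* with 4.78 TPM. *Tcf7* was above *Pygo2*, and *Tle3* above *Tcf7l2*, in 6 of 6 tumors, while *Bcl9l* exceeded *Tcf7*, and *Pygo2* exceeded *Tle3*, in 5 of 6. *Tcf7l2* with 2.92 TPM and *Lef1* with 2.87 TPM could not be ordered, since each was the higher in 3 tumors. *Bcl9* with 1.56 TPM, *Tcf7l1* with 0.950 TPM and *Pygo1* with 0.0816 TPM closed the order, with *Lef1* above *Bcl9*, *Bcl9* above *Tcf7l1* and *Tcf7l1* above *Pygo1* in 5 of 6 tumors each. Apart from the first pair, the ranges of neighbors in this order overlapped over the 6 tumors. In the 5 tumors without M1T1 the order was the same. The lead of *Tle1* holds for the gene as a whole and rests in part on the short and incomplete transcripts given above. Its full-length coding transcripts alone had 15.9, 14.4, 10.6 and 4.98 TPM in M1T2, M1T3, M2T1 and M2T3. *Bcl9l* as a whole had more there, with 16.9, 18.0, 13.2 and 6.87 TPM, but less in M1T1 and M2T2. By estimated reads, which are not divided by length, *Bcl9l* was above *Tle1* only in M2T1, with 1496 against 1420.

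Read against the gene sets given above, M1T1 was the highest tumor for 8 of the 10 by TPM (62.6% of genes). By CPM with TMM it was the highest for 8 of 10 (42.3%). It was at least 4-fold above the highest of the others for 5 of 10 by TPM, which were *Tcf7*, *Tcf7l1*, *Lef1*, *Bcl9* and *Pygo1*, against 19.1% of genes. For *Bcl9* this rested on the fragments without a coding sequence given above. *Tcf7l1* and *Pygo1* met the limit of 1 TPM only through M1T1, with means of 0.872 and 0.0804 TPM over the other 5. Their place in this count is thus partly set by the limit, which also applies to the 19.1%. On CPM with TMM a gap of at least 4-fold held for 3 of 10, *Tcf7*, *Lef1* and *Pygo1*, against 10.1%. The median log2 ratio of this tumor to the median of the others was 2.34 for the 10 genes and 0.98 for all genes by TPM, and 1.21 and 0.04 by CPM with TMM. By Dixon's ratio on log2(TPM + 1), the same 5 genes had this tumor standing apart, where 38.8% of all genes had some tumor apart. At the other end, M2T3 was the lowest for 8 of 10 by TPM (43.4% of genes) and for 5 of 10 by CPM with TMM (19.2%). In excised tumors, fewer cells of a type and less RNA per cell cannot be told apart. The low hepatocyte markers of M1T1 given above moved with these values, and their part in them was not tested.

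**Figure D4:**
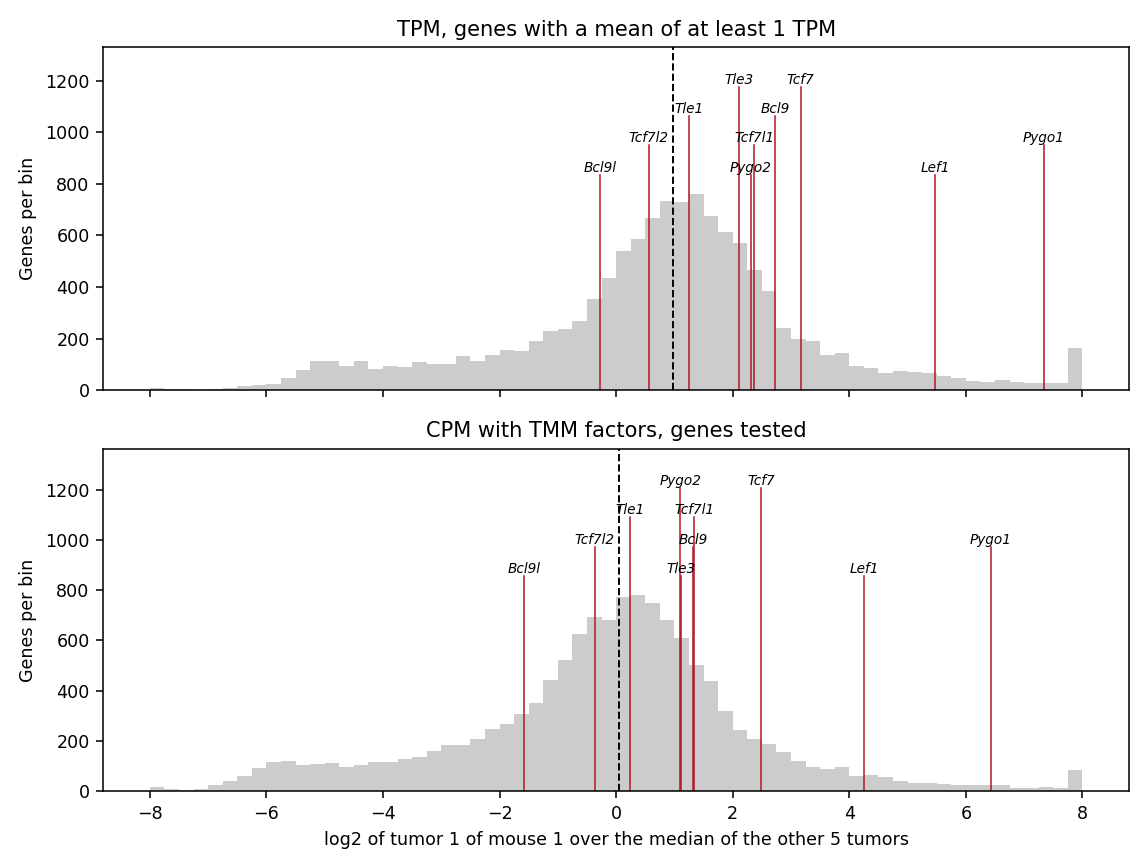
Histogram of the log2 ratio of M1T1 to the median of the other 5 tumors over all genes (gray, dashed line at the median), with the 10 genes as red lines, by TPM (top) and by CPM with TMM (bottom). Values beyond 8 on either side are drawn in the end bins. *Pygo1*, *Lef1* and *Tcf7* lay farthest to the right on both scales, while *Tcf7l2* lay right of 0 by TPM and left of it with TMM.

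Between the animals, none of the 10 genes passed the test. edgeR's quasi-likelihood test with Benjamini-Hochberg adjustment called 0 of 13268 genes (0%) between mouse 2 and mouse 1, with 1449 at an unadjusted p under 0.05. DESeq2 called 133 higher and 69 lower, and limma-voom called 0. Neither called any of the 10, but DESeq2 gave no adjusted p for *Lef1* and *Pygo1* and so could not call them. The comparison is of 2 animals, so its error reflects tumors within an animal and not the variation among animals. *Pygo1*, the only one of the 10 at an unadjusted p under 0.05, had a log2 fold change of -5.57 ± 1.83 (SE) for mouse 2 over mouse 1 and an adjusted p of 0.412, followed by *Lef1* with -3.54 ± 1.49 (adjusted p = 0.468). *Tcf7* was at -1.44 ± 0.77 (adjusted p = 0.561), and *Tcf7l2* at 0.47 ± 0.39 (adjusted p = 0.691). The median over the 10 was -0.63, beside -0.04 over all genes tested.

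Without M1T1, edgeR called 56 genes higher (0.419% of 13374) and 112 lower (0.837%) in mouse 2, and again none of the 10. The log2 fold change was then -1.99 ± 0.75 for *Pygo1* (adjusted p = 0.222), -0.89 ± 0.84 for *Lef1* (adjusted p = 0.601) and -0.10 ± 0.30 for *Tcf7* (adjusted p = 0.889). The value of *Tcf7l1* went from -0.52 ± 0.57 to 0.12 ± 0.34, and that of *Bcl9l* from 0.12 ± 0.49 to -0.24 ± 0.25. That of *Tcf7l2* was 0.40 ± 0.35, near its value with all tumors.

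**Figure D5:**
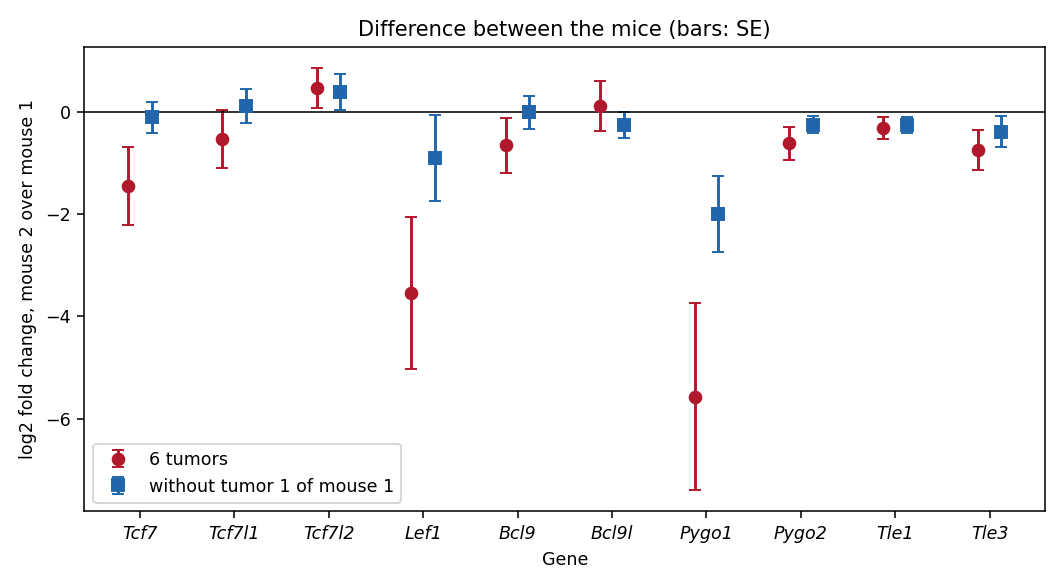
log2 fold change of mouse 2 over mouse 1 by edgeR for the 10 genes, with SE bars, for all 6 tumors (red circles) and without M1T1 (blue squares). *Pygo1* moved from -5.57 to -1.99 and *Lef1* from -3.54 to -0.89, and no gene passed the adjusted threshold in either.

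The other genes of the β-catenin transcription complex were taken from lists of 24 coactivators and 17 corepressors and antagonists. None passed the edgeR test between the mice, with all tumors or without M1T1, and at an unadjusted p under 0.05 there were 0 of 24 and 2 of 17 with all tumors (10.9% of genes), and 2 of 24 and 5 of 17 without M1T1 (20% of genes). DESeq2 without M1T1 called 1 of them (10.2% of genes), *Hic1*, which encodes a transcriptional repressor and had 1.57, 1.92 and 1.85 TPM in mouse 1 and 0.586, 0.455 and 0.379 TPM in mouse 2 (adjusted p = 0.0135 by DESeq2). The same fit called 3 of 9 endothelial, 1 of 9 stellate and fibroblast and 1 of 7 macrophage markers lower in mouse 2 (4.39% of genes), and their part in this call was not tested. That tumor was the highest for 22 of 23 coactivators and 12 of 15 corepressors with a mean of at least 1 TPM (62.6% of genes), and by at least 4-fold for 6 in each list (19.1%). By CPM with TMM it was the highest for 20 of 24 and 11 of 17 (42.3%), and by at least 4-fold for 1 of 24 and 3 of 17 (10.1%). *Ctnnb1*, which encodes β-catenin itself, had 821, 168 and 180.5 TPM in mouse 1 and 134, 147 and 91.0 TPM in mouse 2, with M1T1 4.55-fold above the next tumor by TPM and 2.92-fold by CPM with TMM. A sum over the gene cannot tell the allele without exon 3 from the other. *Ldb1* and *Parp1* followed it among coactivators by the mean of 6 tumors, with 73.8 and 62.6 TPM in M1T1 and at most 19.9 and 15.4 TPM elsewhere, and gaps to the next tumor of 1.71-fold and 2.61-fold by CPM with TMM. Without M1T1, *Ssbp3* with a mean of 19.2 TPM came next after *Ctnnb1*, above *Ldb1* with 16.7 TPM, and *Parp1* with 10.5 TPM lay below 5 further coactivators, *Cdk8*, *Tbl1x*, *Paf1*, *Ruvbl1* and *Smarca4*. *Ldb1* encodes a scaffold that, with SSBP proteins, stabilises the complex around BCL9 and PYGO. *Ssbp2* had 26.0 TPM in M1T1 and 0 to 1.098 TPM in the others, *Ssbp4* had 63.8 TPM against 2.29 to 12.2 TPM, and *Kmt2a*, which encodes a histone H3 methyltransferase, had 9.52 TPM against 0.709 to 1.45 TPM. By CPM with TMM, M1T1 was 13.3-fold, 2.75-fold and 3.94-fold above the next tumor for these 3 genes. They were named for the largest ratio of highest to lowest tumor in their list, so wide gaps follow from that choice. *Ssbp2* averaged 0.506 TPM over the other 5 tumors and met the limit of 1 TPM only through M1T1.

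Among corepressors, *Tle5*, a short TLE relative without WD repeats, was the most abundant at 294.7 to 553.4 TPM. It had 450.8 TPM in M1T1, 1.03 times the median of the others by TPM and 0.514 times by CPM with TMM. *Ctbp1* had 93.7 TPM in that tumor and 23.9 to 75.1 TPM in the others, but by CPM with TMM it was 0.845 times the highest of the others, with 87.5 CPM against 103.5 CPM in M1T3. Its paralog *Ctbp2* had 23.6 TPM against 0.313 to 1.24 TPM, 10.4-fold above the next tumor by CPM with TMM. *Tle2* had 52.2 TPM against 1.13 to 3.21 TPM, so M1T1 was 16.3-fold above the next tumor by TPM and 10.5-fold by CPM with TMM. *Nlk*, which encodes a kinase that phosphorylates TCF/LEF factors, had 85.0 TPM against 9.56 to 21.0 TPM, and 2.98-fold more than the next tumor by CPM with TMM. *Tle6* had 10.3 TPM in that tumor and 0.406 to 4.87 TPM in the others, a gap of 1.79-fold by CPM with TMM. *Ctbp2*, *Tle2* and *Tle6* were also named for the largest ratio of highest to lowest tumor in their list. *Ctbp2* averaged 0.751 TPM without M1T1 and met the limit of 1 TPM only through that tumor.

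The genes closest to each TCF/LEF factor over the 6 tumors were ranked by the root mean square difference of log2(TPM + 1) profiles, each centred on its own mean. Nearest to *Lef1* were *Notum* at 0.22, *Pmp22* at 0.24 and *Trib2* at 0.24. *Notum*, which encodes a secreted carboxylesterase acting on Wnt proteins, had 1822 TPM in M1T1 and 17.4 TPM in M2T3, its highest and lowest values. *Casp2*, *Tmem229a* and *Luc7l3* were nearest to *Tcf7*, at 0.10, 0.12 and 0.13. *Zfr*, *Ubr1* and *Zgpat* were nearest to *Tcf7l1*, at 0.06 each, and *Myo19*, *Adck1* and *Nup210* to *Tcf7l2*, at 0.08, 0.10 and 0.11. With 6 tumors, of which M1T1 lies far from the rest for many genes, these are descriptions of level patterns.

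The letters CTTTGAT, a core sequence that TCF/LEF factors recognise, were searched on both strands in RefSeq windows (GRCm38.p6) from 250 bases before to 50 bases after a gene start. They occurred in 0 of 16 windows of 9 of the 10 genes and in 3.73% of 32851 windows in all.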

How the data were processed

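Tables of 6 tumors, in the layout of Salmon, hold 116546 Ensembl mouse transcripts. The authors deposited estimated counts, which come from assigning fragments to transcripts and were not normalized, and the TPM values deposited by the authors are scaled for effective length and depth. Libraries were made by poly A enrichment per the labels. BWA, Picard and the build GRCm38 appear in the submitters' processing notes, and the release of the index is not stated in the sources used here.

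Of the transcripts, 114813 matched GENCODE vM39 (GRCm39, for names and coding sequences) by identifier, and 1733, with 0.373% to 0.680% of counts, did not. Values were summed per gene. Positions are from RefSeq, GRCm38. Depth ran from 19130532 to 27681766 counts. Where a tumor has a count of 0, up to 3 counts remain possible by counting error alone.

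The 10 genes, the lists and the markers were chosen with earlier results of these data known. All 10 were named, with transcripts holding at least 10% of a gene that had at least 1 TPM, the 3 of highest mean and the 3 of largest range in each other list, and the 3 genes nearest each TCF/LEF factor. Mice were compared by edgeR 4.0.16 (quasi-likelihood, TMM, filterByExpr, two-sided) on rounded counts, DESeq2 1.42.0 and limma 3.58.1 (voom), and shares by exact permutation. Nothing states that tumor numbers mark a shared batch. Scripts were tested on simulated data. Protein sequences were not used here. R 4.3.3, Python 3.11.15, pandas 2.3.3, numpy 2.4.6, scipy 1.17.1 and matplotlib 3.10.9 were used.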

Additional observations from a re-analysis of the deposited data

Results flagged for a closer look

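In each of the following, 1 of the 6 tumors lay far from the other 5, and it was M1T1 each time. The measure is Dixon's ratio, the gap from that tumor to its nearest neighbor over the whole range, and chance alone passes its 95% critical value in about 1 of 20 sets. On log2(TPM + 1) the ratio was 0.919 for *Pygo1*, 0.821 for *Tcf7l1*, 0.704 for *Tcf7*, 0.685 for *Lef1* and 0.666 for *Bcl9*. With TMM the ratio was 0.579 for *Lef1* and 0.581 for *Bcl9*, both under the critical value, and the other 3 stayed above it. For shares within a pair it was 0.917 for *Pygo2* in *Pygo1* + *Pygo2* and 0.788 for *Bcl9l* in *Bcl9* + *Bcl9l*. On log2(TPM + 1), 38.8% of all genes passed the same critical value.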

How the results depend on the processing

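edgeR called 0 genes in either direction with 6 tumors, also with RLE size factors, library size alone, every gene of at least 1 count or coding transcripts only, and with tumor number as a replicate block. The labels tie tumor numbers to no shared batch, and deviations of same-numbered tumors correlated at 0.039, -0.00027 and 0.014 (Pearson's r over genes). limma-voom called 0 as well, while DESeq2 called 133 higher and 69 lower in mouse 2. Leaving out 1 tumor gave 0 to 56 higher and 0 to 112 lower, and only the omission of M1T1 gave any. Without that tumor DESeq2 called 782 and 587, limma-voom 177 and 300, and edgeR with library size alone, added after seeing the data, 20 and 131. The cause was not tested. None of the 10 genes was called under any of these, where the smallest adjusted p was 0.1765 for *Pygo1*. DESeq2 gave no adjusted p for *Lef1* and *Pygo1* with 6 tumors.

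Library size alone moved the median log2 fold change of all genes from -0.04 to -0.55. Under it the sign turned for *Tcf7l2*, to -0.0023, and for *Bcl9l*, to -0.25. *Bcl9l* also turned without M1T1, to -0.24 by edgeR, -0.25 by DESeq2, -0.28 by limma-voom and -0.50 by edgeR with library size alone, and to -0.15 without M2T1. Without M1T1, *Tcf7l1* turned to 0.12 by edgeR, 0.12 by DESeq2 and 0.074 by limma-voom, and *Bcl9* to 0.0035 by limma-voom. Over the omissions of single tumors, *Tcf7l1* ran from -0.77 to 0.12 and *Bcl9l* from -0.24 to 0.38. The other 149 of 160 fold changes of the 10 genes kept their sign. Without M1T1 the mean of *Pygo1* went from 1.42 to 0.0804 TPM and that of *Lef1* from 19.1 to 2.39 TPM.

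The mean share of *Tle3* in its pair rose from 13.6% to 19.97% by estimated reads, which are not divided by length. The genes with a tumor standing apart numbered 5, and 3 with log2(TPM + 0.1), without *Lef1* and *Bcl9*. With TMM, added after seeing the data, they numbered 4, again without *Lef1* and *Bcl9* and with *Tcf7l2*, where M2T1 was apart. The share of all genes with a tumor apart was not counted with log2(TPM + 0.1) or with TMM. Without single tumors, mean shares ran from 15.4% to 20.1% for *Tcf7l2*, 81.8% to 89.8% for *Bcl9l*, 93.8% to 98.9% for *Pygo2* and 11.8% to 14.3% for *Tle3*. Depth limits *Pygo1*, *Lef1* in M2T3 and the smaller forms.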
